A study of Mus musculus with 2 samples.

Results

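Described here are 10 mouse genes that are known targets of signalling through the kinase ERK: the ETS factor genes Etv1, Etv4 and Etv5, the zinc finger factor genes Egr1 and Egr2, the AP-1 subunit genes Fos, Fosl1, Jun and Junb, and the early response gene Ier3. They were picked by symbol from a deposited expression table of 18032 genes, and all 10 were in it. Polyadenylated RNA had been sequenced from 2 wild-type cultures, with 1 library for each. The cEpiSC library came from epiblast stem cells converted in vitro: embryonic stem cells from 2iLIF culture were seeded on fibronectin, kept for 24 h in the same medium, and then held for 2 days in N2B27 that contained activin A (at 20 ng/ml) and the growth factor FGF2 (at 12 ng/ml). The mESC library came from the established embryonic stem cell line ES-E14TG2a in 2iLIF, a serum-free N2B27 medium with LIF (100 units/ml), the GSK3 inhibitor CHIR99021 (3 µM) and PD0325901 (1 µM). PD0325901 inhibits MEK, the kinase that activates ERK, whereas FGF2 activates the pathway. The cultures thus differed in ERK input and in pluripotent state, and also in LIF, the GSK3 inhibitor and activin A. A fibronectin step is given for cEpiSC alone. The parts of these in the values below cannot be told apart.

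FGF receptors act through Ras, Raf and MEK on ERK, which phosphorylates factors already bound at target genes and so changes their transcription. Etv1, Etv4 and Etv5 form the PEA3 subfamily of ETS factors. Capicua, a repressor that ERK signalling inactivates, is known to hold them down. Egr1, Egr2, Fos, Fosl1, Jun, Junb and Ier3 belong to the immediate early genes, many of which respond to serum response factor and its ETS partners within minutes and return towards baseline when a stimulus continues. In embryonic stem cells, ERK drives the exit from the naive state.

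The libraries held 19956733 counts (cEpiSC) and 19843719 counts (mESC). With 1 library per culture no difference had a replicate check, no test between the conditions was possible and no p-value is given. Intervals are 95% intervals that cover counting error only. A gene was called higher or lower by size alone, at 2-fold or more, if it reached 1 CPM (a count relative to its library's TMM-adjusted total) in at least 1 library; 13243 genes did so, of which 13.6% were called higher in cEpiSC and 9.25% lower. Of 9 markers of the primed or formative state 7 were called higher and none lower, with Fgf5 at 276 counts in cEpiSC and 0 in mESC. Of 10 naive markers 8 were called lower and none higher. Markers of other lineages were detected in both libraries, at the summed levels that follow. The 6 primitive streak genes came to 7.95 TPM in cEpiSC and 32.4 TPM in mESC, the 6 primitive endoderm genes to 14.5 TPM in cEpiSC and 33.5 TPM in mESC, and the 5 neural genes to 7.04 TPM in cEpiSC and 9.34 TPM in mESC. The 5 trophoblast genes came to 27.0 TPM in cEpiSC and 53.2 TPM in mESC, and the 6 fibroblast genes to 7.58 TPM in cEpiSC and 6.29 TPM in mESC. Most of the trophoblast sum came from 1 gene, at 23.5 TPM in cEpiSC and 52.2 TPM in mESC. In mESC most of the streak sum likewise came from 1 gene, at 22.64 TPM (0.47 TPM in cEpiSC). The same held for the mESC endoderm sum, with 1 gene at 24.55 TPM (6.53 TPM in cEpiSC). Past the filter were 4 streak and 5 endoderm genes, and 3 genes in each of the neural, trophoblast and fibroblast lists. In these lists 0 streak genes were called higher in cEpiSC and 3 lower, with 0 higher and 2 lower for endoderm, 1 higher and 1 lower for neural, 2 higher and 1 lower for trophoblast, and 1 higher and 1 lower for fibroblast genes. Foxa2, Cdx2 and Postn had 0 counts in cEpiSC, and Mesp1, Neurog2, Col3a1 and Postn were among those with 0 in mESC. The part of such cells in the results below was not tested, and in a bulk sample fewer cells of a type cannot be told apart from less RNA per cell.

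Of the 10 ERK target genes 8 reached 1 CPM in a library. Among these, Etv1, Etv4 and Egr1 were called higher in cEpiSC, none was called lower, and Etv5, Fos, Jun, Junb and Ier3 lay within 2-fold. Egr2 and Fosl1 stayed under 1 CPM in both libraries. Egr1 passed the filter through the cEpiSC library alone, at 3.91 CPM in cEpiSC and 0.723 CPM in mESC, so a difference was built into its passing. The background of higher calls depended on abundance: it was 32.8% among genes whose greater level was under 10 CPM, 8.02% from 10 to 100 CPM and 3.72% at 100 CPM or more. Egr1 belonged to the first of these classes, Etv1 to the second and Etv4 to the third. The counting interval of the ratio lay wholly above 2-fold for Etv1, Etv4 and Egr1, as it did for 9.15% of all genes past the filter. It lay wholly above no difference for 6 of the 8 genes past the filter, against 36.6% of all genes past it, and included no difference for Fos and Junb. Of the pair under the filter, Fosl1 had an interval above no difference and Egr2 one that included it. In the following, fold values are ratios of scaled counts, log2 ratios carry a prior count of 2, and the bracketed interval is that of the ratio without the prior count.

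**Figure D1:**
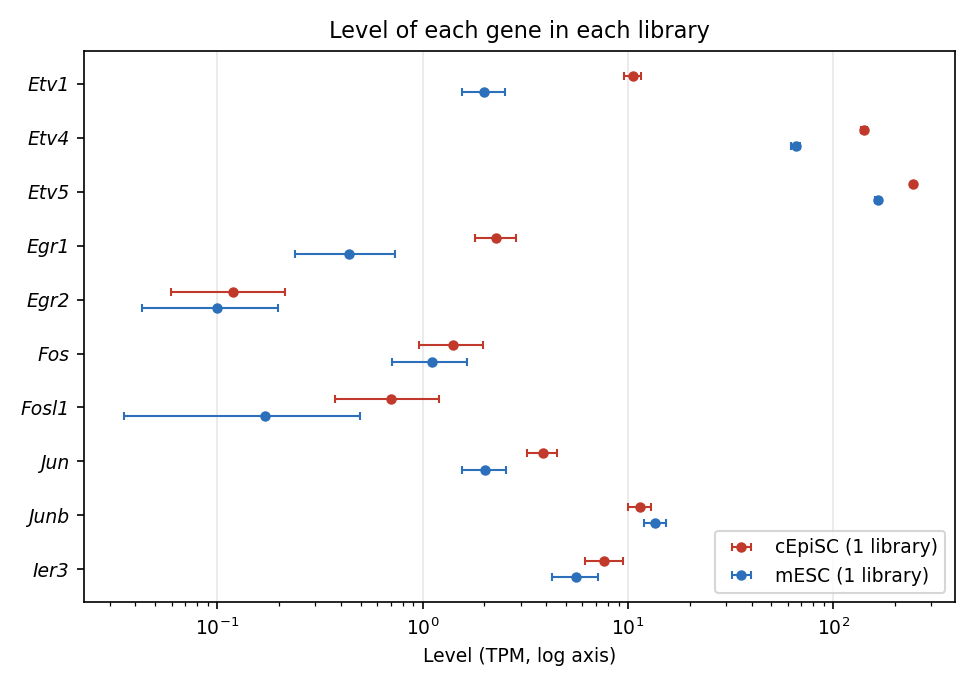
Level of each ERK target gene in TPM on a log axis, in cEpiSC (red, upper) and mESC (blue, lower); points are the deposited values of 1 library each and bars are 95% counting intervals. Etv5 and Etv4 stand far above the other 8 genes in both libraries, and the bars of the libraries do not meet for Etv1, Etv4, Etv5, Egr1 and Jun.

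All 3 PEA3 genes had higher levels in cEpiSC, by intervals that excluded no difference, and Etv5 and Etv4 were the most abundant of the 10 genes in both libraries. Etv5 (Entrez 104156, chromosome 16, 22381313 to 22439570 in GRCm38.p6) had 10814 counts in cEpiSC and 6619 in mESC, which the authors' length-scaled values put at 246 TPM in cEpiSC and 164 TPM in mESC. It was thus abundant already under MEK inhibition, and its level was 1.54-fold higher in cEpiSC (log2 ratio 0.63 [0.58 to 0.67]), a narrow interval that stayed below 2-fold. Etv4 (Entrez 18612, chromosome 11, 101769747 to 101785310) had 3695 counts in cEpiSC and 1574 in mESC, or 141 TPM in cEpiSC and 65.7 TPM in mESC. It was 2.22-fold higher in cEpiSC (1.15 [1.06 to 1.24]). Etv1 (Entrez 14009, chromosome 12, 38780082 to 38870483) had 426 counts in cEpiSC and 71 in mESC, or 10.6 TPM in cEpiSC and 2.00 TPM in mESC. At 5.67-fold it had the widest difference of the 3 (2.47 [2.14 to 2.89]), from the lowest level.

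The intervals of the 3 PEA3 ratios did not overlap, so by counting error alone Etv1 differed more between these libraries than Etv4, and Etv4 more than Etv5. The order of their levels was the same in both libraries. The level of Etv5 was 1.74 times that of Etv4 in cEpiSC (1.68 to 1.81) and 2.50 times in mESC (2.37 to 2.65), on the TPM scale. Etv4 stood at 13.3 times the level of Etv1 in cEpiSC (12.0 to 14.7) and at 32.9 times in mESC (25.9 to 42.3). Ranked by log2 ratio among the 13243 genes, Etv1 had 96.1% of genes below it, Etv4 88.3% and Etv5 80.2%.

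Promoter sequences are shown for the PEA3 gene with the widest difference and the one with the highest level. They are the 250 bases before the outermost RefSeq start of each gene in GRCm38.p6, 5′ to 3′ on the gene's strand, at chr12:38779832-38780081 on the plus strand for Etv1 and chr16:22439571-22439820 on the minus strand for Etv5, in lower case since none of the motifs searched was found in them.
Etv1: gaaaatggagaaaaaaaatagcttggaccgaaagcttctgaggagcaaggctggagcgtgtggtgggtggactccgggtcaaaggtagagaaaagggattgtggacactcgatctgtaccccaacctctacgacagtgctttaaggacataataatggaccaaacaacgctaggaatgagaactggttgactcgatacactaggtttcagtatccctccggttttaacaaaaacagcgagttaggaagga
Etv5: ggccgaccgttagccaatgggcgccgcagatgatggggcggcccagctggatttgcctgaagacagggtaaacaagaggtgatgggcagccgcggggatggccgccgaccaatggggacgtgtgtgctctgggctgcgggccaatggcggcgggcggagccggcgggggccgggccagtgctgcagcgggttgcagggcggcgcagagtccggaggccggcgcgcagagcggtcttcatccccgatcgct
The windows differ in base composition. With 50 further bases after the start, the Etv5 window had 74.0% GC and 37 CpG dinucleotides, more CpG than 94.4% of all RefSeq promoter windows of that length, and the Etv1 window had 48.7% GC and 12 CpG, more than 60.4%. The median window had 7 CpG.

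Setting the PEA3 genes beside the rest of the ETS family showed a shift in its make-up. Among 26 listed ETS genes, Etv5 had the highest level in both libraries, and Etv4 was in the second place in cEpiSC and in place 4 in mESC. The mESC gene in place 3 stood at 66.2 TPM, close to Etv4 at 65.7 TPM, and their counting intervals overlapped. Etv1 was in place 9 in cEpiSC and in place 17 in mESC. The PEA3 genes summed to 397 TPM in cEpiSC and 232 TPM in mESC, while the other 23 summed to 192 TPM in cEpiSC and 461 TPM in mESC. PEA3 transcripts thus made up 67.4% of the listed ETS transcripts in cEpiSC and 33.5% in mESC, shares within a library that do not depend on how the libraries were scaled. Of the 23 other genes 16 passed the filter, of which 2 were called higher and 5 lower, with a median log2 ratio of -0.68 against -0.02 over all genes. Over all genes past the filter 13.6% were called higher and 9.25% lower. Elf3, an epithelial ETS factor gene, stood at 30.7 CPM in cEpiSC and 146 CPM in mESC (log2 ratio -2.25). Spic, known as a factor of macrophages, stood at 0.586 CPM in cEpiSC and 30.8 CPM in mESC (-5.49). Elf4, known from lymphocytes, stood at 22.3 CPM in cEpiSC and 78.9 CPM in mESC (-1.82). Ets1, the founding member of the family, had 37 counts in cEpiSC and 3 in mESC, a log2 ratio of 2.90 (1.88 to 5.89). Both of the other ETS genes called higher, Ets1 included, passed the filter through the cEpiSC library alone. Among genes whose greater level was under 10 CPM, as for both of these, 32.8% were called higher. Without Elf3 and Spic, a choice made after their values were seen, the PEA3 share was 70.9% in cEpiSC and 45.8% in mESC.

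The genes of the Capicua complex were all below a log2 ratio of 0. Cic, which encodes Capicua itself, stood at 103 CPM in cEpiSC and 226 CPM in mESC (-1.13), and was called lower. Its partner genes Atxn1 and Atxn1l lay within 2-fold, and the median of the 3 was -0.58.

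**Figure D2:**
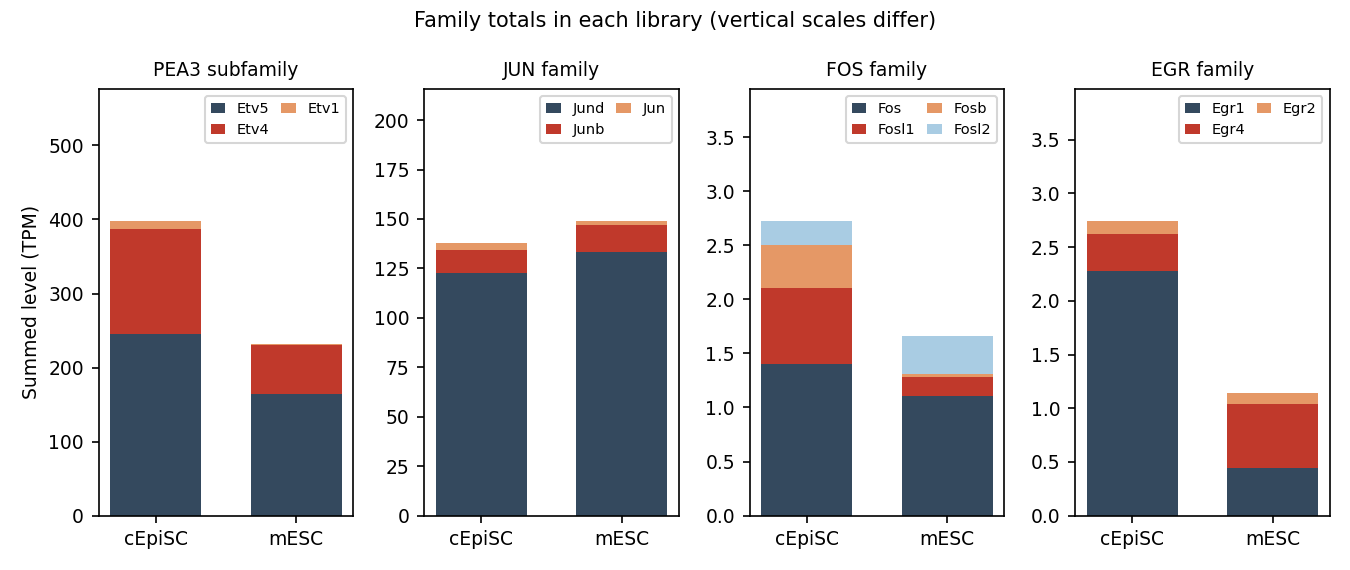
Stacked levels in TPM of the PEA3, JUN, FOS and EGR genes in cEpiSC (left bar) and mESC (right bar), 1 library each; bars start at 0 and vertical scales differ between panels. The PEA3 total is 397 TPM in cEpiSC and 232 TPM in mESC, the JUN total is 138 TPM in cEpiSC and 149 TPM in mESC and mostly Jund in both, and the FOS and EGR totals are below 3 TPM in both.

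Of the EGR genes, which encode zinc finger activators, Egr1 differed and Egr2 was barely detected. Egr1 (Entrez 13653, chromosome 18, 34861207 to 34864956) had 80 counts in cEpiSC and 14 in mESC, or 2.28 TPM in cEpiSC and 0.44 TPM in mESC. Low in both libraries, it was 5.40-fold higher in cEpiSC (2.28 [1.60 to 3.37]), with 95.6% of genes below it by log2 ratio. At this level the value leaned on the scale used: with the deposited values and a pseudocount of 1 the log2 ratio of Egr1 was 1.19 on TPM and 0.92 on FPKM, the second below 2-fold. Egr2 (Entrez 13654, chromosome 10, 67534469 to 67542188) had 11.33 estimated counts in cEpiSC and 8.30 in mESC, or 0.12 TPM in cEpiSC and 0.10 TPM in mESC, and these counts are too few to show a difference (log2 ratio 0.31 [-1.07 to 1.90]). Its counts are not whole numbers, as happens when reads are shared between loci, so they are less certain than the interval says. Egr2 also overlaps the non-coding RNA gene Gm32255 in the RefSeq table, and whether counting kept strand is not given in the sources used here.

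Together the EGR genes came to 2.74 TPM in cEpiSC and 1.14 TPM in mESC. Egr1 made up 83.2% of this in cEpiSC and 38.6% in mESC, where Egr4, with 8 counts in cEpiSC and 13 in mESC, held 52.6%. Egr3 had 0 counts in both libraries. Of the 2 corepressor genes whose products bind EGR proteins, Nab2 stood at 4.30 CPM in cEpiSC and 15.8 CPM in mESC (-1.85) and was called lower, and Nab1 was within 2-fold at 16.8 CPM in cEpiSC and 15.3 CPM in mESC (0.14). Wt1, a zinc finger factor gene related to the EGR genes, had 72 counts in cEpiSC and 0 in mESC. Against a floor of 3 counts in mESC its ratio was 22.7-fold, and the lower counting limit of its log2 ratio was 4.17. Wt1 passed the filter through the cEpiSC library alone, at 3.52 CPM in cEpiSC.

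A CArG box, the site of serum response factor, was present in 4 of the 5 RefSeq promoter windows of Egr2, at 2 places. It is held by 1.63% of all windows of this length. These stretches of 30 bases are shown with the box in capitals, at chr10:67537484-67537513 and chr10:67537787-67537816 on the plus strand. The first base of each box lies 72 bases upstream of a RefSeq start.
Egr2 window 2: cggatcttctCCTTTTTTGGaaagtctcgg
Egr2 window 3: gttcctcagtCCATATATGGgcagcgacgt
The gene that holds these letters had 11 rounded counts in cEpiSC and 8 in mESC. Transcript levels of serum response factor itself were similar: Srf stood at 72.3 CPM in cEpiSC and 66.0 CPM in mESC (0.13). None of the 6 genes for serum response factor and its partners was called in either direction, against 22.8% of all genes past the filter. Their median log2 ratio was -0.34, and 1 of the 6 lay above 0. Elk1, an ETS partner that ERK phosphorylates, stood at 41.1 CPM in cEpiSC and 47.9 CPM in mESC (-0.22).

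None of the AP-1 genes, whose products pair as Fos and Jun dimers, was called higher or lower. Jun (Entrez 16476, chromosome 4, 95049036 to 95052222) had 140 counts in cEpiSC and 67 in mESC, or 3.84 TPM in cEpiSC and 2.01 TPM in mESC. It was higher in cEpiSC, just short of the size called, at 1.98-fold (0.96 [0.55 to 1.42]); with library totals in place of TMM factors the log2 ratio was 1.03 and Jun would be called. Junb (Entrez 16477, chromosome 8, 84976909 to 84978748), which encodes a close relative of Jun, had 235 counts in cEpiSC and 256 in mESC, or 11.4 TPM in cEpiSC and 13.6 TPM in mESC. It alone of the 10 genes had a ratio below no difference, and its interval included no difference (-0.20 [-0.47 to 0.06]).

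Of the Fos genes, Fos (Entrez 14281, chromosome 12, 85473890 to 85477274) had 33 counts in cEpiSC and 24 in mESC, or 1.40 TPM in cEpiSC and 1.11 TPM in mESC. The values lay close together, and no difference could be detected with these few counts (0.35 [-0.42 to 1.20]). Fosl1, which encodes Fra-1 (Entrez 14283, chromosome 19, 5447698 to 5455938), had 13.26 estimated counts in cEpiSC and 3.04 in mESC, or 0.70 TPM in cEpiSC and 0.17 TPM in mESC. Its rounded counts gave a 4.10-fold ratio whose interval was wide (log2 ratio 1.53 [0.17 to 4.49]), and like those of Egr2 its counts are not whole numbers. Fosl1 overlaps Ccdc85b in the RefSeq table, and here too reads of the overlapping gene cannot be told apart unless counting kept strand. With no filter on low counts Fosl1 would be called higher.

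The make-up of the AP-1 pool puts these values in proportion. The JUN genes came to 138 TPM in cEpiSC and 149 TPM in mESC, of which Jund, the member least tied to acute stimulation, held 89.0% in cEpiSC and 89.5% in mESC. Jun held 2.78% of that pool in cEpiSC and 1.35% in mESC. The FOS genes came to 2.72 TPM in cEpiSC and 1.66 TPM in mESC, led by Fos with 51.5% in cEpiSC and 66.9% in mESC. Fosb, named after its values were seen, had 16 counts in cEpiSC and 1 in mESC, a 15.1-fold ratio (log2 interval 1.23 to 9.31). Among 16 AP-1 and Maf genes outside the 10, Jund, Fosb and Fosl2 included, 11 passed the filter, 1 was called higher and 2 lower, with a median log2 ratio of -0.56. For all genes past the filter the shares were 13.6% higher and 9.25% lower. Jdp2, which encodes a dimer partner of Jun, stood at 13.4 CPM in cEpiSC and 36.6 CPM in mESC (-1.45), and Atf7, which encodes a CREB-like partner, at 17.1 CPM in cEpiSC and 43.9 CPM in mESC (-1.35).

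The Fos promoter is shown as the classical immediate early promoter of the set, over the 120 bases before its RefSeq start at chr12:85473770-85473889 on the plus strand. Capitals mark 2 matches, the first to a Capicua site on the opposite strand, 50 bases upstream of the start at its left end, and the second to a TATA box, 33 bases upstream.
Fos: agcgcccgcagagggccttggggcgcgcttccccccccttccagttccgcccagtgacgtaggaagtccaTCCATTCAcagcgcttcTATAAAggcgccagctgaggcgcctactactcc
A match to the Capicua site is held by 3.84% of all windows and to the TATA box by 13.6%, and a match is a description of the letters, not evidence of binding. Windows were found for 7 of the 10 genes. The motifs searched on both strands were the ETS site CCGGAAGT (3.89% of all windows), the Capicua site TCAATGAA, TCAATGGA, TGAATGAA or TGAATGGA, the AP-1 site TGACTCA or TGAGTCA (5.20%), the cyclic AMP response element TGACGTCA (1.79%), the EGR site GCGTGGGCG (0.612%), the TATA box TATAAA and the CArG box. No motif overlapped another in these windows. None of them was found in the windows of Etv5, Jun and Ier3. A TATA box was found on the opposite strand in the inner of 2 Etv1 windows, and on the gene's own strand at the start of Junb. Variants of the listed motifs were not searched, nor were bases further upstream than a window reaches. For Fos, the lack of a marked CArG box or cyclic AMP response element therefore does not show that the gene has none.

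Ier3 (Entrez 15937, chromosome 17, 35821713 to 35822911), an early response gene whose product is known to modulate cell survival and ERK activity, had 90 counts in cEpiSC and 60 in mESC, or 7.66 TPM in cEpiSC and 5.58 TPM in mESC. It was 1.42-fold higher in cEpiSC, with an interval that barely cleared no difference (0.49 [0.02 to 1.00]).

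**Figure D3:**
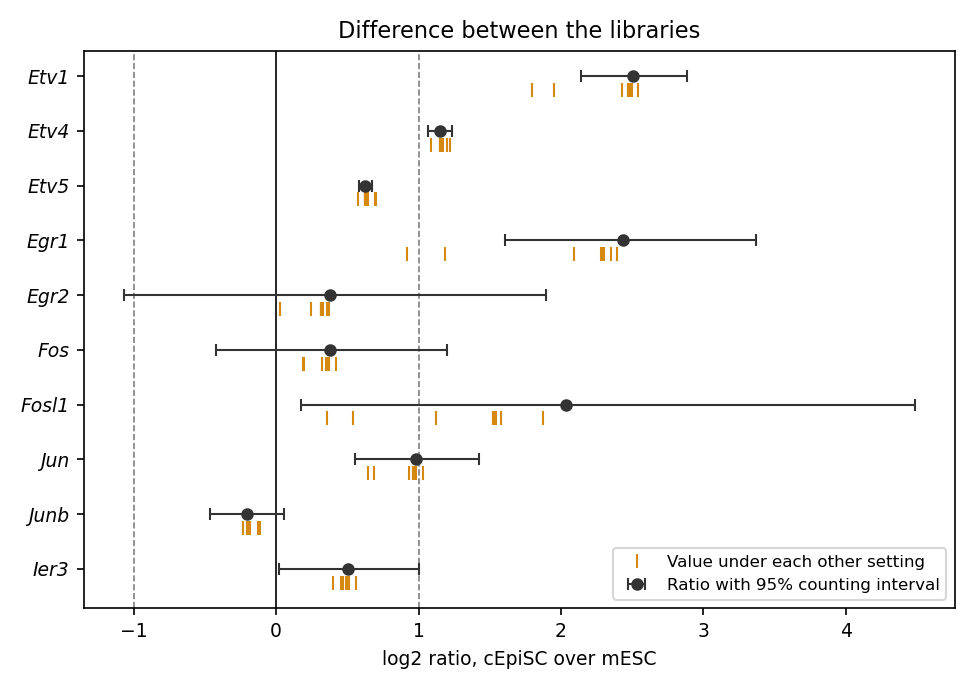
Log2 ratio of cEpiSC over mESC for each gene (points, without a prior count) with its 95% counting interval (bars); orange ticks are the log2 ratios under each other setting, and dashed lines mark 2-fold. Etv1, Etv4 and Egr1 have intervals wholly above 2-fold, Etv5 has a narrow interval below it, and those of Egr2, Fos and Junb include 0.

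In level, the 10 genes spanned from 246 TPM (Etv5) to 0.12 TPM (Egr2) in cEpiSC and from 164 TPM (Etv5) to 0.10 TPM (Egr2) in mESC. Etv4 and Etv5 together held 91.1% of the summed level of the 10 genes in cEpiSC and 90.2% in mESC. In cEpiSC the order was Etv5, Etv4, Junb, Etv1, Ier3, Jun, Egr1, Fos, Fosl1 and Egr2, and the counting intervals of neighbours overlapped for Junb with Etv1, Egr1 with Fos, and Fos with Fosl1. In mESC it was Etv5, Etv4, Junb, Ier3, Jun, Etv1, Fos, Egr1, Fosl1 and Egr2, and the intervals of neighbours overlapped throughout from Jun down to Egr2. In the order of levels, Etv1 stood 2 places higher in cEpiSC than in mESC.

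**Figure D4:**
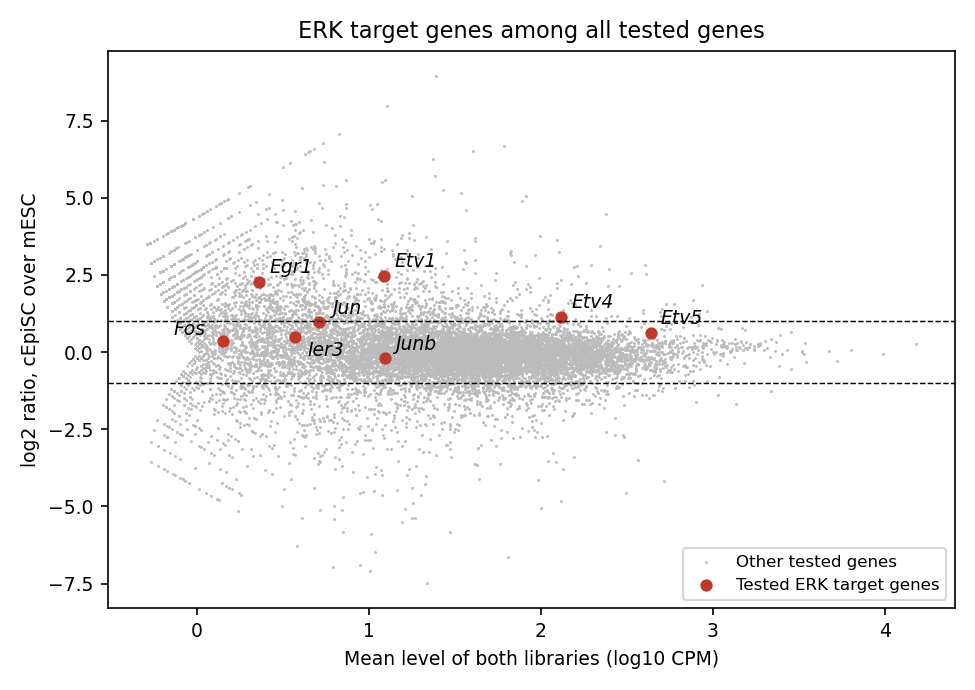
Log2 ratio of cEpiSC over mESC against mean level (log10 CPM) for the 13243 genes at 1 CPM or more in a library (grey) and the 8 ERK target genes among them (red); dashed lines mark 2-fold. Etv4 and Etv5 lie at the abundant end, where few genes differ by 2-fold, and Egr1, Fos, Jun and Ier3 at the sparse end, where many do.

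The length of transcript behind each gene, which the deposited counts and FPKM imply, was the same in both libraries to within rounding or nearly so for 5 of the 6 genes with 1 FPKM or more in each, at ratios of 0.998 to 1.00. For Etv1 the effective length was 3415 bases in cEpiSC and 3283 bases in mESC, a ratio of 1.04 (1.03 to 1.05 allowing for rounding of the deposited values). Across 10848 genes the central 90% of such ratios ran from 0.959 to 1.03. The effective length is an average over the transcripts to which reads of a gene were assigned, and the mESC value of Etv1 rests on 71 counts.

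Around the 10 genes, other parts of the pathway were uneven. The 26 genes of the cascade from FGF receptor to ERK and its kinases were mostly within 2-fold: 1 was called higher, none lower, and the median log2 ratio was -0.13. The higher gene was the receptor gene Fgfr2, at 7.96 CPM in cEpiSC and 1.71 CPM in mESC (2.16). Of 12 feedback inhibitor genes, by contrast, 7 were called higher and none was called lower, and the median was 1.61. Beside these lists, 13.6% of all genes past the filter were called higher and 9.25% lower. Where the greater level was under 10 CPM, as for Fgfr2 and some inhibitor genes called higher, the share called higher was 32.8%. With a filter at 5 CPM 5 inhibitor genes were called higher, and with the deposited TPM or FPKM 6 were. Dusp4 stood at 80.1 CPM in cEpiSC and 0.775 CPM in mESC (6.52), and Spry4 at 66.7 CPM in cEpiSC and 1.76 CPM in mESC (5.17). Dusp6 stood at 151 CPM in cEpiSC and 5.01 CPM in mESC (4.89), and Dusp9 at 343 CPM in cEpiSC and 48.1 CPM in mESC (2.83). The log2 ratios of these 4 lay above that of Etv1, the widest among the 10 genes, although the interval of Etv1 reached that of Dusp9. Whether the lists differ from each other was not tested.

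Among 33 other immediate early genes 31 passed the filter, of which 10 were called higher, none lower and 21 lay within 2-fold, at a median of 0.18. The shares over all genes past the filter were 13.6% higher and 9.25% lower. Myc, which encodes a growth-promoting factor, stood at 28.5 CPM in cEpiSC and 2.12 CPM in mESC (3.69). The stress and growth arrest gene Gadd45a stood at 119 CPM in cEpiSC and 12.9 CPM in mESC (3.20), and Phlda1 at 20.1 CPM in cEpiSC and 3.88 CPM in mESC (2.34). Dusp2, a phosphatase gene, had 25 counts in cEpiSC and 5 in mESC (1.88). It passed the filter through the cEpiSC library alone, at 1.22 CPM in cEpiSC and 0.258 CPM in mESC. Of genes whose greater level was under 10 CPM, 32.8% were called higher. Handling of cells can itself induce Fos, Jun and Egr1. Of 10 heat shock genes listed as a sign of such stress, 1 was called higher, Hspa1a with 65 counts in cEpiSC and 24 in mESC and reads shared with a near copy (1.29), none was called lower, the median was 0.13, and the summed level was 7958 TPM in cEpiSC and 8771 TPM in mESC. The part of handling in the values of Egr1, Fos and Jun was not tested.

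**Figure D5:**
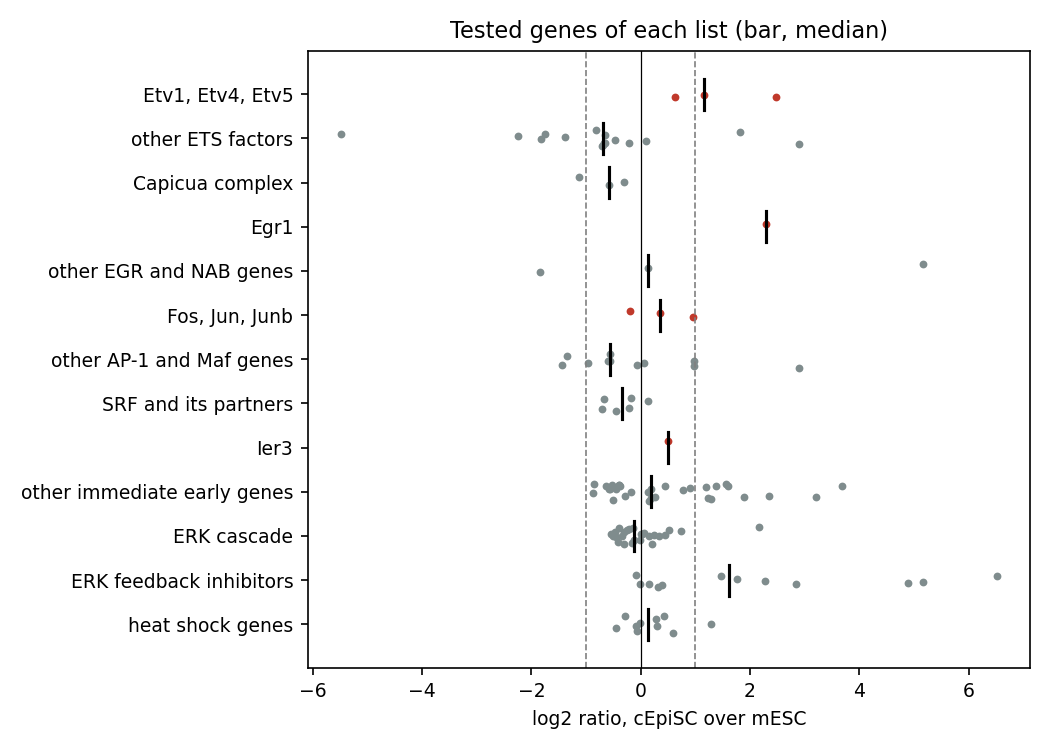
Log2 ratio of cEpiSC over mESC for every gene at 1 CPM or more in a library (points, scattered vertically for legibility) in the gene lists named on the vertical axis, with the median as a bar; red marks the ERK target genes described here and dashed lines mark 2-fold. The median is 1.61 for the feedback inhibitors and -0.68 for the other ETS factors.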

How the data were processed

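The authors deposited read counts, TPM and FPKM per gene for 1 cEpiSC and 1 mESC library. Per the file headers the deposited read counts are unscaled, and they are estimated counts, since 11.9% of genes in cEpiSC and 11.3% in mESC were more than 0.005 from a whole number. The TPM and FPKM values were scaled per kilobase by the authors. RSEM 1.3.1, DESeq2 1.34.0, HISAT2, Bowtie2 and the build GRCm38.p6 are named in the submitters' processing notes. What each tool did, the annotation, and whether strand entered the counting are not stated there.

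Counts were rounded and scaled with TMM factors from all genes in edgeR 4.0.16 under R 4.3.3 (1.03 for cEpiSC and 0.975 for mESC). Log2 ratios of cEpiSC over mESC carried a prior count of 2. A gene that reached 1 CPM in either library was called at 2-fold, without a p-value, since no residual degrees of freedom existed. Intervals of ratios are exact conditional (Clopper-Pearson) and those of levels exact Poisson. Reads amplified by PCR and not tagged with molecular identifiers are not independent, and intervals and floors therefore cover counting error alone. The calculation was run on simulated counts that held counting error alone. This checks the arithmetic and says nothing of variation between cultures. Remaining steps used Python 3.11.15. Coordinates, 1-based, and promoter windows (250 bases before to 50 after a start) came from RefSeq tables of GRCm38.p6. No column of another sample was present (0).

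The 10 genes and the lists were chosen with earlier results of these data known. In each list the text names up to 4 called genes, those whose log2 ratios were largest in size, or the 2 most abundant where none was, and Fosb, Egr4, Jund, Nab1 and genes at 0 counts were named in addition to complete small families. Some genes that this rule covers are not reported here. Alternatives were size factors from DESeq2 1.42.0, library totals, prior counts of 0.5 and 5, no filter, filtering at 5 CPM, log2 ratios of the deposited TPM or FPKM after adding a pseudocount of 1, calls from the counting interval and, added after seeing the data, TMM factors from the tested genes alone.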

Additional observations from a re-analysis of the deposited data

How the results depend on the processing

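Each of the 10 genes kept the sign of its log2 ratio under each setting that gave it a value, and Etv1 and Etv4 stayed at 2-fold or more. A change of filter leaves each ratio as it is, and a prior count cannot change a sign. Those settings are therefore no check of the sign. The number called higher was 3, but 4 with library totals (Jun added) or with no filter (Fosl1 added), and 2 with a filter at 5 CPM (which left Egr1, Fos and Ier3 without a value) or with FPKM (Egr1 below 2-fold). Values outside the counting interval were 1.95 (TPM) and 1.79 (FPKM) for Etv1, 0.70 (library totals), 0.58 (TPM) and 0.69 (FPKM) for Etv5, and 1.19 (TPM) and 0.92 (FPKM) for Egr1. The pseudocount of 1 shrinks ratios of genes near or under 1 TPM by its construction. The cause for Etv5 was not tested.

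Of all genes, 1796 were called higher, but 2712 with no filter, 970 with a filter at 5 CPM, 1092 with TPM and 945 with FPKM. Called lower were 1225, but 680 with FPKM. Among other ETS genes 2 were called higher, but 0 with the 5 CPM filter, TPM or FPKM. Among other AP-1 and Maf genes 1 was called higher, but 3 with library totals, 2 with no filter and 0 with the 5 CPM filter, TPM or FPKM. The EGR and NAB list had 1 higher, but 0 with the 5 CPM filter, and the ERK cascade 1, but 0 with FPKM. Of the JNK and p38 genes 3 were higher, but 1 with the 5 CPM filter, TPM or FPKM, and 1 was lower, but 0 with FPKM. The heat shock list had 1 higher, but 0 with the 5 CPM filter, TPM or FPKM. The other 278 values stayed within their counting interval or within 1.5 times the count, some of them by construction, as for the ratios under a changed filter. Depth limits what can be said of Egr2, Fos and Fosl1. No paired analysis was possible because each culture had 1 library.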

Other observations

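The stress-activated kinases JNK and p38 also phosphorylate AP-1 factors, and calls among their genes went in both directions. Of 11 kinase genes of these branches 3 were called higher in cEpiSC, 1 lower and 7 within 2-fold, at a median log2 ratio of 0.32. Over all genes past the filter 13.6% were called higher and 9.25% lower. Among those whose greater level was under 10 CPM, as for Mapk11 and Mapk10, 32.8% were called higher. Mapk12, which encodes p38 gamma, stood at 24.9 CPM in cEpiSC and 2.69 CPM in mESC (log2 ratio 3.16), and Mapk11, which encodes p38 beta, at 4.45 CPM in cEpiSC and 1.60 CPM in mESC (1.42). The JNK gene Mapk10 had 24 counts in cEpiSC and 8 in mESC (1.31). It passed the filter through the cEpiSC library alone, at 1.17 CPM in cEpiSC and 0.413 CPM in mESC. Map2k6, which encodes an activator of p38, was lower in cEpiSC at 23.0 CPM, against 49.5 CPM in mESC (-1.10). Mapk14, which encodes p38 alpha, the most abundant p38 transcript in both libraries and named after its values were seen, stood at 52.4 TPM in cEpiSC and 74.7 TPM in mESC and lay within 2-fold.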
